A study of Mus musculus with 8 samples.

Results

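Of the 24060 gene symbols in the deposited tables, 8 were chosen by name: the neurotrophin genes Bdnf and Ntf3, the neurotrophin receptor genes Ntrk2, Ntrk3, Ngfr and Sort1, and the receptor genes Gfra1 and Gfra2. All 8 had exactly 1 row, and all 8 passed the filter on low values. Gfra1 and Gfra2 belong to the GDNF family of growth factor receptors, a separate family from the neurotrophin receptors, and are described beside them. The samples were HA IP libraries (RNA on ribosomes precipitated through a hemagglutinin tag) and input libraries (RNA of the cleared lysate), 1 of each from the cortex of 4 mice numbered 579, 580, 581 and 595. The mice were young adults of about postnatal day 80, of both sexes, with the genotype Aldh1l1-creERT2 hemi; Ribotag het in both groups. RiboTag tags the ribosomal protein Rpl22 wherever Cre is active, and here Cre was tamoxifen-inducible and driven by Aldh1l1, a gene of astrocytes. The labels do not say which animal was male or female, and input holds RNA of all cortical cell types, tagged or not. The comparison asked which of these growth factor and receptor transcripts were on astrocyte ribosomes.

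Neurotrophins are secreted growth factors that keep neurons alive, guide their branching and adjust the strength of synapses. They act through the Trk receptor tyrosine kinases, with BDNF binding TrkB (gene Ntrk2) and NT-3 binding mainly TrkC (Ntrk3), and through p75 (Ngfr), which binds all neurotrophins and pairs with sortilin (Sort1) to bind their uncleaved precursors. The GFRα proteins lie on the cell surface without a kinase of their own, bind GDNF (Gfra1) or neurturin (Gfra2), and signal through the kinase Ret or the adhesion molecule NCAM. In cortex, BDNF is made mostly by excitatory neurons in an activity-dependent way, and astrocytes are known for a truncated TrkB without a kinase domain. The deposited values are per gene, so full-length and truncated Ntrk2 could not be told apart.

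The libraries held 33834388 to 53625125 fragments. Aldh1l1 averaged 406 ± 26.2 FPKM (fragments per kilobase of gene and per library depth) in HA IP, against 21.8 ± 0.926 FPKM in input (SD, n = 4 each). The neuron markers Snap25 and Syt1 each changed by -4.17 on the log2 scale (limma). All 15 astrocyte markers were called higher in HA IP and all 15 neuron markers lower, and the neuron markers summed to 124 to 155 FPKM in HA IP, against 3120 to 3310 FPKM in input. Levels of the other cell types' markers in HA IP were also above 0, with 14.5 to 16.1 summed FPKM for 8 oligodendrocyte markers and 25.7 to 33.7 for 8 microglia markers, against 164 to 231 and 167 to 175 in input. The same sums were 2.74 to 5.54 for oligodendrocyte precursor markers, 2.69 to 4.02 for endothelial markers and 19.9 to 59.7 for mural and fibroblast markers in HA IP, against 25.3 to 30.2, 18.6 to 27.0 and 56.2 to 70.5 in input. How much RNA from unrecombined cells contributed to the HA IP values of the 8 genes was not tested. In bulk RNA, fewer cells of a type and less RNA per cell cannot be told apart. Animal 581 lay far from the other animals in both of its libraries for Bdnf, in HA IP for Ngfr and in input for Ntf3 and Gfra2, and it was high in genes of astrocyte reactivity. Over all tested genes, 8 were high and 6 low in both libraries of animal 581, and 11 and 6 in both of animal 595, by the same measure of distance. Without animal 581, Ntrk2 changed by 2.47, Ntrk3 by -1.23, Sort1 by -0.93 and Gfra1 by 2.53, all still called, and the other members are given without it beside their values.

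Fold changes below are log2 values of HA IP over input from limma, on FPKM + 0.1 after scaling by trimmed mean of M-values (TMM), with Benjamini-Hochberg adjustment over 15605 tested genes. TMM scaling adds 0.84 on average to a log2 ratio of FPKM before the pseudocount, and 0.78 to 0.89 by animal. The median of all tested genes was 0.01 with it and -0.75 on the deposited scale. Levels are on the deposited scale. The lengths behind the FPKM were not for every gene that of a single transcript. They ran from 3400 bases for Ngfr to 43933 bases for Bdnf, the latter within a gene span of 52344 bases. Levels are therefore compared within a gene and not between genes.

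Both ligand transcripts were lower in HA IP. Their genes lie at chr2:109674700-109727043 (Bdnf) and chr6:126101412-126166772 (Ntf3) in GRCm38.p6. Bdnf, the gene of brain-derived neurotrophic factor, stood at 0.0832, 0.0601, 0.366 and 0.0619 FPKM in HA IP of animals 579, 580, 581 and 595, and at 1.01, 1.07, 2.35 and 1.14 FPKM in input. The groups did not overlap, and animal 581 was the highest in both. These values rested on 167, 117, 722 and 92 fragments in HA IP and on 1584 to 3809 in input. Bdnf changed by -2.09 (SE 0.40, adjusted p = 0.000646), lower in 4 of 4 animals. Without animal 581 it changed by -2.23 (SE 0.16, adjusted p = 2.92e-06), and on the deposited scale by -2.70. The pseudocount of 0.1 FPKM was near or above the HA IP values of animals 579, 580 and 595. It therefore understated the difference in all of these fits, and with 0.01 FPKM in its place Bdnf changed by -2.71. Summed over the 4 animals, Bdnf had 1098 fragments in HA IP and 9741 in input.

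Ntf3, the gene of neurotrophin-3, was at the edge of detection in HA IP. It had 2, 3, 3 and 4 fragments in HA IP of animals 579, 580, 581 and 595, and 72, 69, 25 and 111 fragments in input. Input of animal 581 was the lowest of its group, at 0.166 FPKM against 0.477 to 0.507 FPKM in the others, and still above every HA IP library. The fitted change was -1.65 (SE 0.24, adjusted p = 0.000113), or -1.91 without animal 581. The pseudocount of 0.1 FPKM exceeded every HA IP value, which were 0.0107 to 0.029 FPKM, and so understated the difference. The fragments of the 4 animals were also summed and scaled to library size without TMM factors. By that measure HA IP held 24.1-fold less Ntf3 than input (95% exact interval 13.6 to 47.2, counting error only), and 27.8-fold less without animal 581.

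Bdnf has several promoters, and RefSeq (GRCm38.p6) lists 7 windows of 250 bases before to 50 bases after a start site for it. Bdnf is known to be induced through the factor CREB, so the window that holds TGACG, the core of the CREB site, is shown here. A search of both strands found TGACG in 1 of the 7 windows, at chr2:109692186-109692485 on the plus strand, and in 20.8% of all 32851 windows in the table. The capitals mark the match, which is at position -35 from the start site and reads CGTCA, that is TGACG on the other strand. The values are per gene and do not say which promoter was in use.
Bdnf: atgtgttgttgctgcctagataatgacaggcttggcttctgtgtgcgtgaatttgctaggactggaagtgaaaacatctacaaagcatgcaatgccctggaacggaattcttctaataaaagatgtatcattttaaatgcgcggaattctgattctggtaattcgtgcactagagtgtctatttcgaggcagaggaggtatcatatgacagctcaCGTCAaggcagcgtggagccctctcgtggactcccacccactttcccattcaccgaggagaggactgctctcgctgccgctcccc

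**Figure D1:**
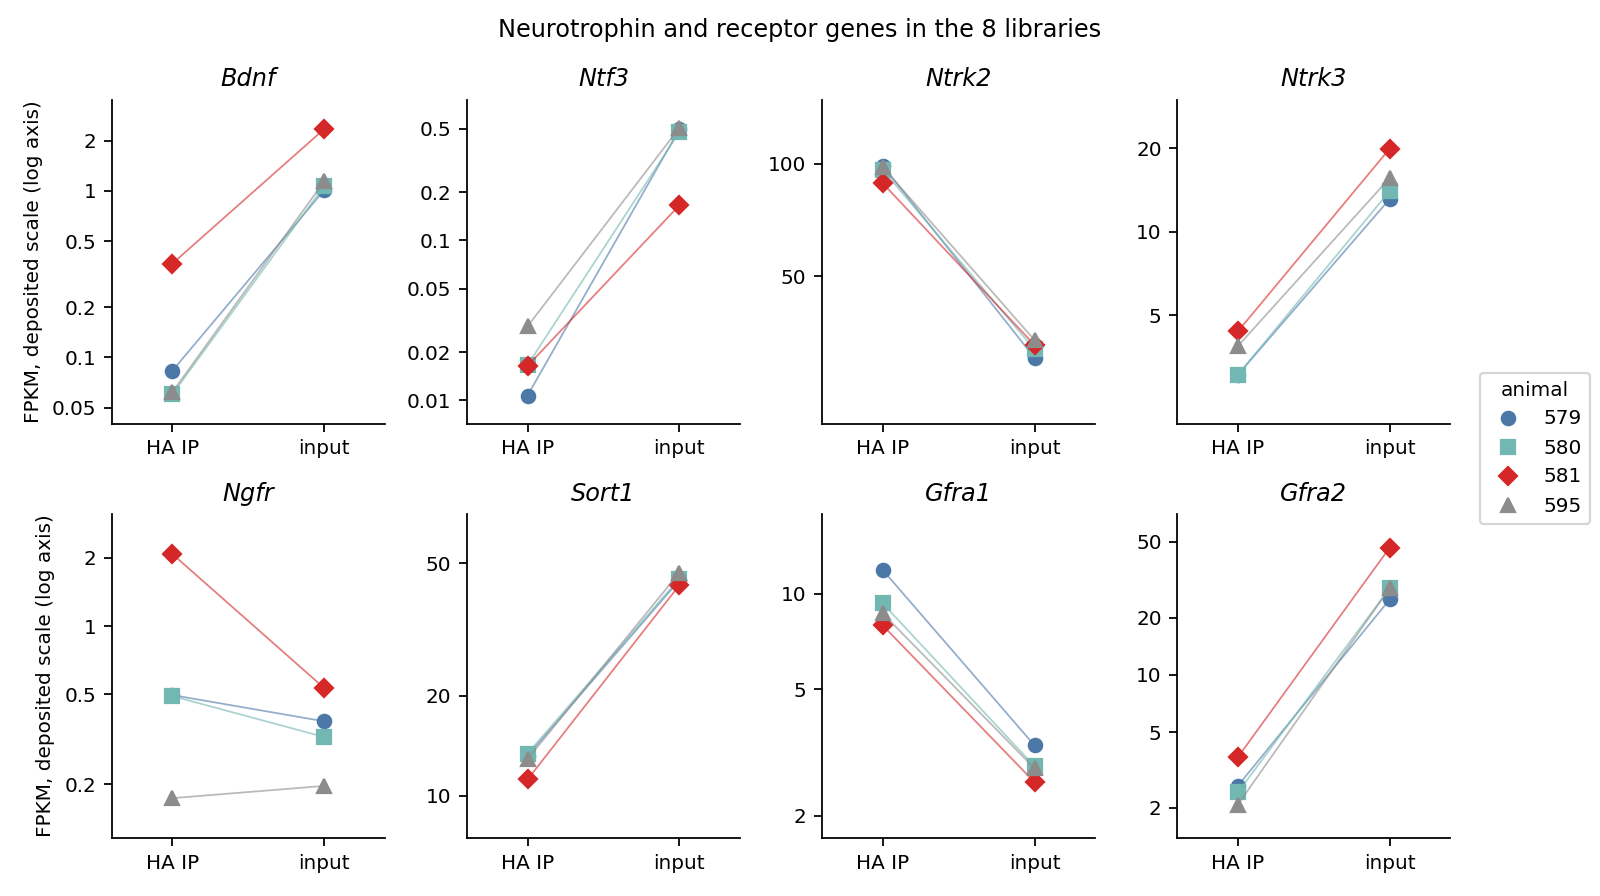
FPKM on the deposited scale (log axis, a separate range for each gene) in HA IP and input for each of the 8 genes, with a line joining the libraries of an animal. Ntrk2 and Gfra1 slope down from HA IP to input in all 4 animals, Ngfr is spread from 0.174 to 2.08 FPKM in HA IP, and the other genes are higher in input.

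The receptor kinase genes, at chr13:58806472-59133970 (Ntrk2) and chr7:78179986-78581034 (Ntrk3), moved in opposite directions. Ntrk2, the gene of the BDNF receptor TrkB, stood at 99.0, 96.5, 88.8 and 98.1 FPKM in HA IP of animals 579, 580, 581 and 595, and at 30.3, 31.9, 32.8 and 33.8 FPKM in input. The libraries within a group lay close together and the groups were far apart. Ntrk2 rose by 2.41 (SE 0.07, adjusted p = 1.27e-09), with ratios between 2.25 and 2.58 in the 4 animals. On the deposited scale the rise was 1.57, so its direction did not depend on the scaling. With 81119 to 110462 fragments per HA IP library and 26374 to 44254 per input library, Ntrk2 was the most deeply covered of the 8 genes.

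Ntrk3, the gene of the neurotrophin-3 receptor TrkC, had 3.05, 3.05, 4.37 and 3.87 FPKM in HA IP, against 13.1, 14, 19.9 and 15.6 FPKM in input of animals 579, 580, 581 and 595. Animal 581 was the highest in both groups, and the groups did not overlap. Ntrk3 fell by 1.26 on the log2 scale (SE 0.15, adjusted p = 2.25e-05), with ratios from -1.35 to -1.21 in the 4 animals. Its change was thus nearly the same in each animal although its level was not. On the deposited scale it was -2.09.

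Ngfr (chr11:95568818-95587698), the gene of the shared receptor p75, varied widely between animals. It stood at 0.496, 0.491, 2.08 and 0.174 FPKM in HA IP of animals 579, 580, 581 and 595, from 77, 74, 317 and 20 fragments. The input values were 0.380, 0.324, 0.533 and 0.197 FPKM, from 46, 39, 67 and 36 fragments. The groups overlapped, animal 581 was the highest and animal 595 the lowest in each. The change was 1.28 (SE 0.54) and did not pass (adjusted p = 0.0505). With the animal as a block it passed (adjusted p = 0.00596), since the ratio was above 0 in each animal after TMM scaling, at 1.02, 1.19, 2.51 and 0.39. On the deposited scale it was 0.61 (adjusted p = 0.303), and HA IP was below input in animal 595. Without animal 581 it was 0.87 (adjusted p = 0.0514), and without animal 595 it was 1.57 (adjusted p = 0.0190).

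Sort1 (chr3:108283974-108361519), the gene of the sorting receptor sortilin, which carries proneurotrophins and other cargo between the Golgi, endosomes and the surface, was lower in HA IP. It had 13.2, 13.4, 11.2 and 12.9 FPKM in HA IP, against 44.5, 45, 43.0 and 46.9 FPKM in input of animals 579, 580, 581 and 595. The spread within each group was small against the gap between them. Sort1 fell by 0.98 on the log2 scale (SE 0.08, adjusted p = 1.61e-06), and by 1.82 on the deposited scale. At 5994 to 8293 fragments per HA IP library, its HA IP level was measured well above the limit of detection.

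The GDNF family receptor genes, at chr19:58235581-58455946 (Gfra1) and chr14:70890107-70979840 (Gfra2), also moved apart. Gfra1, the co-receptor of GDNF, had 11.9, 9.34, 7.96 and 8.68 FPKM in HA IP, against 3.33, 2.86, 2.55 and 2.82 FPKM in input of animals 579, 580, 581 and 595. Animal 579 was the highest and animal 581 the lowest in both groups, which did not overlap. Gfra1 rose by 2.49 (SE 0.14, adjusted p = 7.96e-08), or 1.67 on the deposited scale. An uncharacterised noncoding gene, Gm10007, overlaps Gfra1 in RefSeq, and it had 0 fragments in every HA IP library and 0 to 7 in input. Whether reads were counted by strand is not given in the sources used here, so reads of the shared stretch cannot be assigned. Gfra2, the co-receptor of neurturin, had 2.61, 2.41, 3.69 and 2.08 FPKM in HA IP, against 24.9, 28.5, 46.6 and 28.5 FPKM in input. Animal 581 was again the highest in both groups. Gfra2 fell by 2.69 on the log2 scale (SE 0.21, adjusted p = 1.02e-06), the largest fall of the 8 genes at this pseudocount, and by 2.64 without animal 581.

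Ntrk2 and Gfra1, the members that rose, are shown by their RefSeq promoter windows because they moved together. Both windows hold ACAAT, the core that SOX factors bind, which was searched on both strands. It was found in 31.0% of all windows, so its presence sets neither gene apart. It was also in 3 of the 7 windows of Bdnf, which fell, and in 0 of the windows of Ngfr and Ntf3. The capitals mark the matches, which are at positions -241 and -203 from the Ntrk2 start site and at -197 from that of Gfra1, each reading ATTGT, that is ACAAT on the other strand. The windows lie at chr13:58806319-58806618 on the plus strand for Ntrk2 and at chr19:58455349-58455648 on the minus strand for Gfra1 (GRCm38.p6).
Ntrk2: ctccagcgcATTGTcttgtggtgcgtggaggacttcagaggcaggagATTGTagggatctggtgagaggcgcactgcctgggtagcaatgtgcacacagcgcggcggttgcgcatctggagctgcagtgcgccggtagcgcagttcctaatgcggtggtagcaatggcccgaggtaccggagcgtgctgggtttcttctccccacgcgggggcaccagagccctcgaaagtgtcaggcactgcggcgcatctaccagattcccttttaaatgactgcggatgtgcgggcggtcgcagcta
Gfra1: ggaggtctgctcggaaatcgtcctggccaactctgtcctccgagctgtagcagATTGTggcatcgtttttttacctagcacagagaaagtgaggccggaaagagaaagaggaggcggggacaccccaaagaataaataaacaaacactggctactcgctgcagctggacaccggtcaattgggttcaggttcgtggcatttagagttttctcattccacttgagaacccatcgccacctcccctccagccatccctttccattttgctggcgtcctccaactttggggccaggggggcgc

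Of the 8 genes, 2 were called higher and 5 lower in HA IP, and 1 did not pass. With the animal as a block, Ngfr passed too, which made 3 higher. Over all 15605 tested genes, 42.1% were called higher and 41.2% lower (83.3% in either direction), so a call in itself sets none of the 8 apart. On the deposited scale the same numbers of the 8 were called, against 23.3% higher and 61.6% lower (84.9% in either direction) over all genes. The median change was -1.12 for the 8 genes. Set among cell type markers, Ntrk2 and Gfra1 lay below all 15 astrocyte markers, which ran from 2.96 to 5.11, and above all 15 neuron markers. Sort1, Ntrk3, Ntf3 and Bdnf lay above all 15 neuron markers, which ran from -4.41 to -2.35, and only Gfra2 lay within their range. For the low genes Ntf3 and Bdnf this place depended on the pseudocount, as they changed by -3.14 and -2.71 with 0.01 FPKM in place of 0.1. Most other marker lists were also lower in HA IP, against a median of -3.68 for neurons. Their medians were -3.18 for oligodendrocytes, -2.51 for their precursors, -2.90 for microglia and -2.04 for endothelial cells. The 9 mural and fibroblast markers were mixed, with a median of -0.83, 4 called lower, 1 called higher and 4 not called. Gfra2 lay within the oligodendrocyte, precursor and microglia ranges, and Bdnf, Ntf3, Ntrk3 and Sort1 within the precursor, microglia and endothelial ranges. Bdnf, Ntf3, Ntrk3, Sort1 and Ngfr also lay within the mural and fibroblast range of -2.52 to 1.36. The part of these cell types in the falls was not tested.

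**Figure D2:**
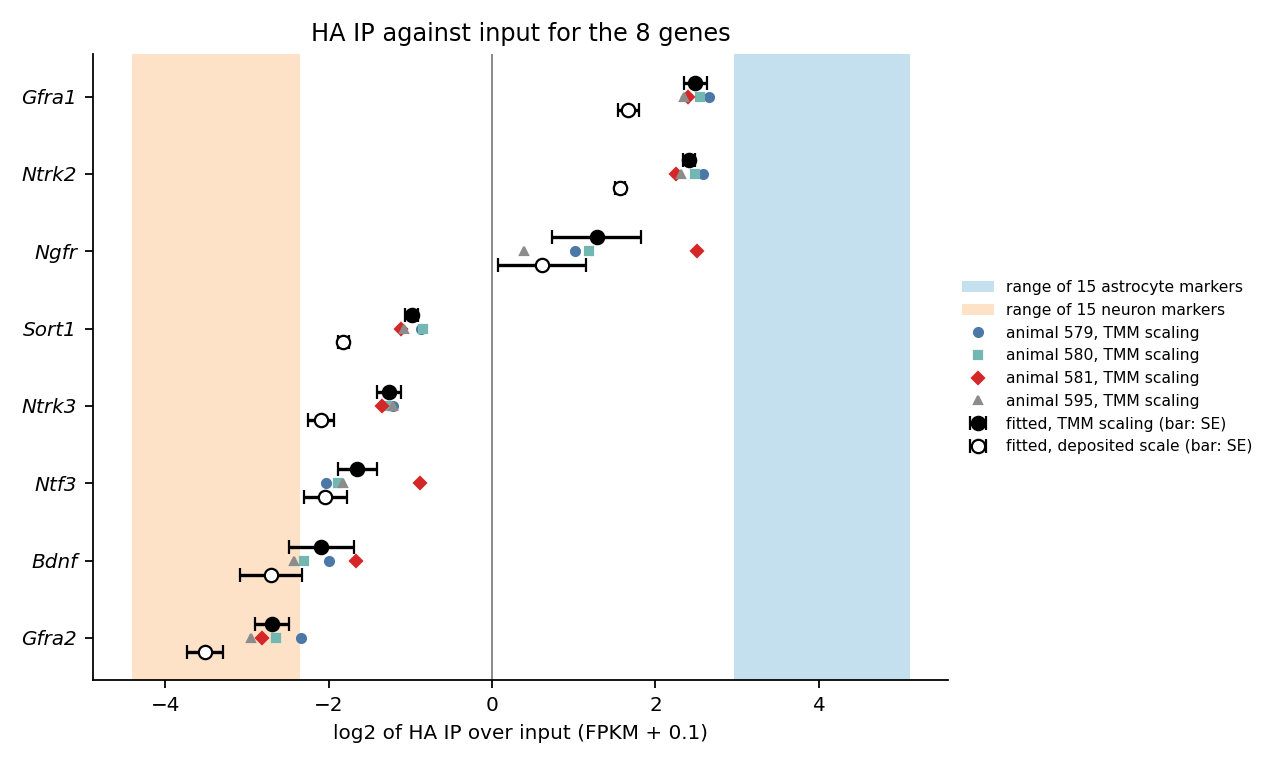
Log2 of HA IP over input for the 8 genes, as fitted with TMM scaling (filled circles) and on the deposited scale (open circles), with SE bars and the ratio of each animal (coloured points). Shading spans the fitted TMM values of 15 astrocyte markers and of 15 neuron markers. Gfra1 at 2.49 and Ntrk2 at 2.41 lie right of 0 and left of the astrocyte range, and Gfra2 at -2.69 lies in the neuron range.

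The partners of these genes were described from 7 lists of 100 genes, of which 91 were tested, 34 were called higher and 45 lower. Shares of 42.1% higher and 41.2% lower over all genes are the background for these counts and for those of each list. Ntf5, the gene of neurotrophin-4, was below the filter. It had 12 fragments in all of HA IP and 84 in all of input, 7.31-fold lower in HA IP (95% exact interval 3.97 to 14.7). Input of animal 581 gave 49 of the 84, and without that animal Ntf5 was 4.35-fold lower in HA IP (1.98 to 10.8), from 8 and 35 fragments. Both folds were scaled to library size without TMM factors. With TMM scaling the groups overlapped, and the log2 ratios of FPKM + 0.1 ran from -1.92 to -0.08 in the 4 animals.

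Of the 6 tested genes among the other GDNF family genes, 2 rose and 4 fell. Ret, the kinase that GFRα proteins signal through, had 2, 3, 25 and 7 fragments in HA IP of animals 579, 580, 581 and 595, and 133, 131, 457 and 196 in input. It fell by 1.69 on the log2 scale (SE 0.31, adjusted p = 0.000506), and by 2.07 on the deposited scale. By summed fragments, scaled to library size without TMM factors, it was 25.9-fold lower in HA IP (95% exact interval 18.6 to 37.0). Without animal 581 it was 38.1-fold lower (21.6 to 74.3). Ncam1, the alternative signalling partner, rose by 2.08 (SE 0.09, adjusted p = 1.08e-08), at 40.8 ± 3.42 FPKM in HA IP, against 17.2 ± 1.26 FPKM in input (SD, n = 4 each). Of the ligand genes, Pspn (persephin) rose by 2.01 (SE 0.30), from 25 to 66 fragments per HA IP library, against 12 to 18 per input library. Nrtn (neurturin) changed by -0.69 and Artn (artemin) by -0.47 (limma, adjusted p = 0.0126 and 0.00811). Artn had 0 to 3 fragments per HA IP library, against 9 to 35 per input library. Its highest value, 0.0845 FPKM, was below the pseudocount of 0.1 FPKM, which understated its difference. By summed fragments, scaled to library size without TMM factors, Artn was 13.9-fold lower in HA IP (95% exact interval 6.47 to 35.5). Gfra4, the persephin co-receptor, fell by 2.25 (SE 0.10, adjusted p = 1.46e-08), and the Pspn adjusted p was 0.000112. Gdnf had 1 fragment in all of HA IP and 20 in all of input, and Gfra3 had 0 and 5. Gfral had 2 and 1, too few for a comparison. Gdf15, the ligand of the Gfral protein, was also below the filter, with 0.128 ± 0.112 FPKM in HA IP, against 0.114 ± 0.0517 FPKM in input (SD, n = 4 each).

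Among 16 genes of the sortilin family and of p75 partners, 7 rose and 7 fell with TMM scaling, with a median of 0.09, and 6 rose and 9 fell on the deposited scale, with a median of -0.73. Tnfrsf19 (TROY), a p75 relative that can take its place in the Nogo receptor complex, rose by 3.12 (SE 0.13), and Nradd, a p75-like death domain gene, by 3.04 (SE 0.15). The sortilin relatives Sorcs3 and Sorcs1 changed by -3.20 (SE 0.24) and -3.11 (SE 0.21). Of 12 tested genes of proneurotrophin processing and release, 3 rose and 7 fell with TMM scaling, with a median of -1.21, and 2 rose and 9 fell on the deposited scale, with a median of -1.75. Cpe, carboxypeptidase E, which sorts proBDNF to the regulated secretory pathway, rose by 4.18 (SE 0.19), and the proprotein convertase gene Pcsk6 by 3.36 (SE 0.20). Pcsk1, the convertase of neuronal and endocrine granules, changed by -4.78 (SE 0.14), and Serpini1 (neuroserpin), an inhibitor of tissue plasminogen activator, by -4.06 (SE 0.16).

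Signalling genes downstream of Trk and Ret divided, and many of their calls depended on the scaling. Of 25 adaptor genes, 9 rose and 11 fell with TMM scaling, and 3 rose and 18 fell on the deposited scale. Gab1 and the phosphatase gene Ptpn11 (SHP2) rose by 2.03 (SE 0.14) and 1.17 (SE 0.07), and by 1.21 and 0.33 on the deposited scale. Dok6, an adaptor of Ret, and Shc2 changed by -4.57 (SE 0.22) and -2.65 (SE 0.13). Of 21 Ras-MAPK and PI3K genes, 9 rose and 9 fell, or 4 and 13 on the deposited scale. The kinase genes Akt2 and Map2k2 rose by 3.0 (SE 0.12) and 1.33 (SE 0.08), while Rps6ka2 and Braf changed by -2.96 (SE 0.09) and -1.85 (SE 0.11). Of 10 regulators of Bdnf transcription, 4 rose and 6 fell, or 2 and 7 on the deposited scale. Rest, a repressor of neuronal genes, and the E-box factor gene Usf1 rose by 1.83 (SE 0.19) and 1.17 (SE 0.09). The activity-dependent factors Mef2c and Mef2d changed by -3.22 (SE 0.09) and -2.58 (SE 0.13). Each gene named from these last 5 lists passed the limma test, with adjusted p from 8.1e-10 (Mef2c) to 8.15e-06 (Rest).

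**Figure D3:**
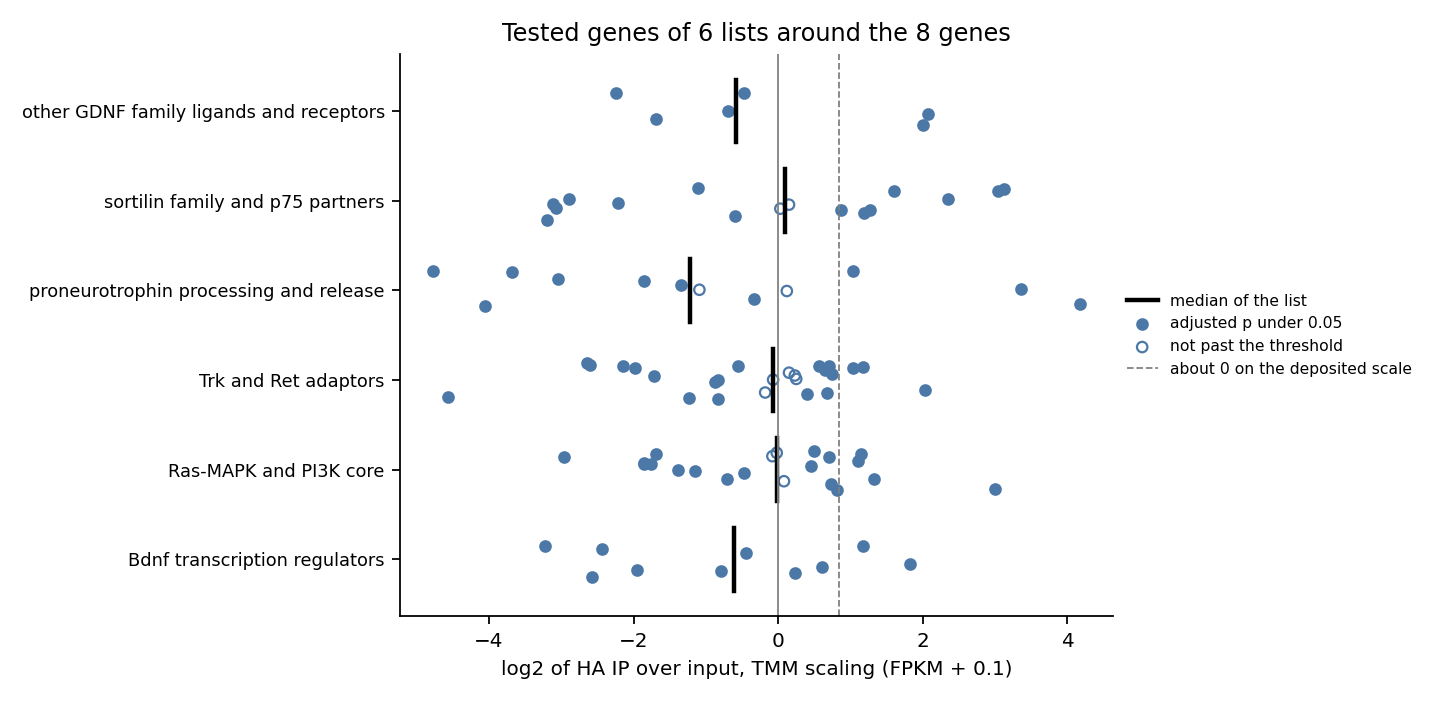
Log2 of HA IP over input with TMM scaling for the tested genes of 6 lists around the 8 genes, 1 point per gene (filled, adjusted p under 0.05). Black bars are list medians, and a point between the solid and the dashed line falls below 0 when the deposited FPKM are not rescaled. The medians run from -1.21 (proneurotrophin processing and release) to 0.09 (sortilin family and p75 partners).

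Animal 581 differed from the other animals most in Bdnf, Ngfr, Gfra2 and input Ntf3. Its HA IP library had 5.91 times the median Bdnf of the other 3 HA IP libraries, 4.23 times the median Ngfr and 1.53 times the median Gfra2. Its input library had 2.19, 1.65 and 1.63 times the input medians of the same genes. Ret was 8.23 times the median in HA IP and 3.34 times in input. The HA IP ratio rested on 25 fragments, against 2, 3 and 7 in animals 579, 580 and 595. Input Ntf3 was 0.334 times the median. Ntrk3 was 1.43 times the median in HA IP and 1.42 times in input. Ntrk2, Sort1 and Gfra1 were at 0.848 to 1.03 times the median in both libraries. Within that range, animal 581 was the lowest in both groups for Sort1 and Gfra1, and in HA IP for Ntrk2.

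The same animal was also high in genes of reactive astrocytes, a state known from injury and inflammation. Gfap stood at 1080 FPKM in HA IP of animal 581 and 310 to 449 FPKM in the other HA IP libraries, and the intermediate filament gene Vim at 317 against 71.0 to 110 FPKM. The protease inhibitor gene Timp1 had 3.02 against 0.109 to 0.123 FPKM, and the cytokine receptor gene Osmr 6.79 against 1.02 to 1.06 FPKM. Of 13 reactive astrocyte genes, 8 were highest in animal 581 in HA IP and 9 in input, and Lcn2 was not among them in either. Nptx2, a synaptic gene that neurons induce with activity, was at 20.9 FPKM in HA IP of animal 581 and 1.66 to 1.90 in the others, and at 150 FPKM in its input and 33.7 to 39.6 in the others. Of 15 activity-regulated genes, Nptx2 included, 6 were highest in animal 581 in HA IP and 6 in input. Their sum was 203 FPKM in HA IP of animal 581, against 127 to 178 FPKM in the other HA IP libraries. In its input the sum was 956 FPKM, against 600 to 857 FPKM in the other input libraries. Nptx2, chosen after its values were seen, gave 150 of the 956 FPKM, and Rheb gave 98.4 of the 203 FPKM in HA IP. The sums thus do not show a rise shared by the list. Fosb, Inhba, Vgf, Scg2 and Rheb were highest in both of its libraries, Homer1 was lowest in both, and Fos, Arc, Egr1 and Npas4 lay within the range of the other animals in both groups. These genes were chosen after their values were seen, and their relation to Bdnf, Ngfr, Gfra2 and Ret was not tested. The summed neuron markers of animal 581 were 155 FPKM in HA IP, against 124 to 155 FPKM in the other HA IP libraries. In input they were 3310 FPKM, against 3120 to 3260 FPKM in the other input libraries. Of the 15 neuron markers, 9 were highest in animal 581 in HA IP and 7 in input. For the 15 astrocyte markers the numbers were 4 and 5. The share of all genes highest in animal 581 is not given here, so the counts of the lists lack that background.

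**Figure D4:**
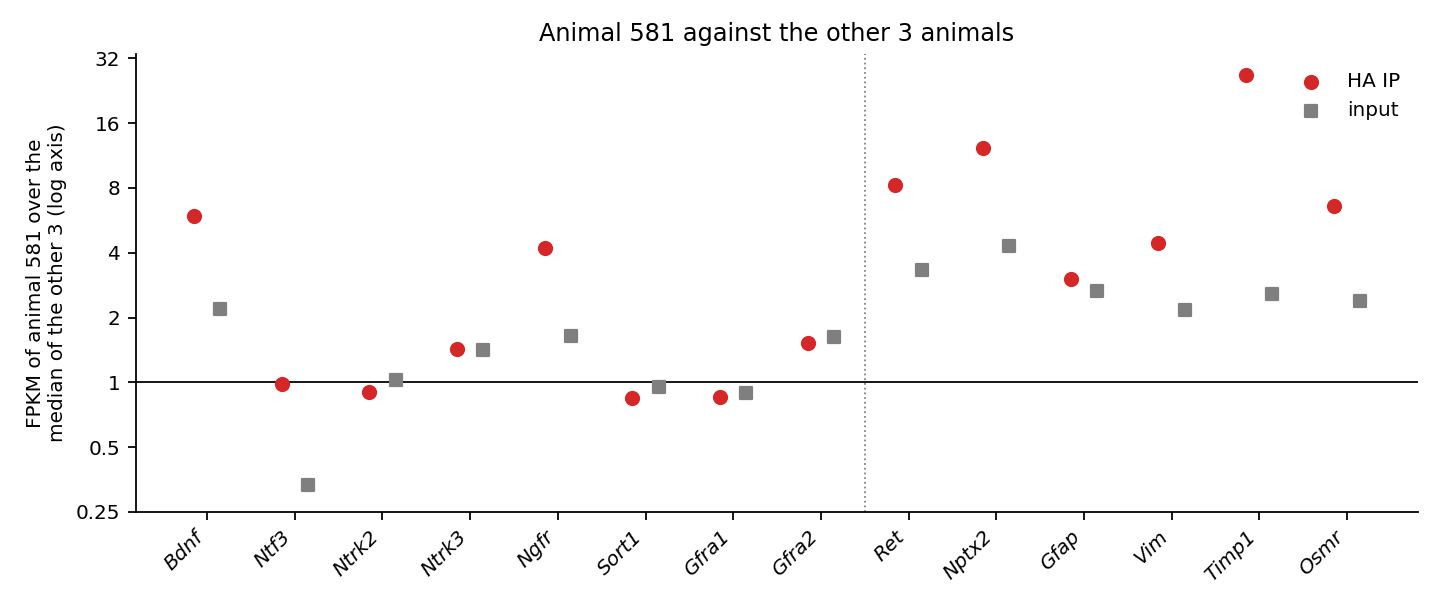
FPKM of animal 581 over the median of the other 3 animals (log axis), in HA IP (circles) and input (squares), for the 8 genes and, right of the dotted line, for Ret and genes of activity and reactivity. Bdnf at 5.91 and Ngfr at 4.23 in HA IP stand above the line at 1, input Ntf3 at 0.334 lies below it, and Ntrk2, Sort1 and Gfra1 lie near it.

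For each of the 8 genes, the nearest profiles were sought among 12173 tested genes with a mean of at least 1 FPKM, by the root mean square difference of gene-centred log2 values over the 8 libraries. Ntrk2 was nearest to Echdc1 and Lonp1, each at a difference of 0.06, and Gfra1 to Cuedc1 (0.05) and Grtp1 (0.10). Sort1 was nearest to Calm3 (0.05) and Tspyl3 (0.06), and Ntrk3 to Camkk1 and Pcdh7, each at 0.10. Gfra2 was nearest to Emx1 and Ppm1h, each at 0.14, and Bdnf to Cdh13 (0.27) and Igfbp4 (0.30). Ntf3 had Aif1 (0.17) and Spin2c (0.18), and Ngfr had Ehd2 (0.31) and Ccnd1 (0.37). The differences were larger for Bdnf and Ngfr than for the other members. Bdnf, Ngfr and Ntf3 had means below 1 FPKM themselves, so genes at their own level were left out of the search. Whether the size of a difference follows the level of a gene or its values in animal 581 was not tested.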

How the data were processed

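RNA-seq libraries (KAPA stranded, paired-end, mRNA-enriched, 100 ng of input or IP RNA) were sequenced, per the labels' protocols. For processing, bcl2fastq 2.17 is named in the submitters' processing notes, with STAR and HTSeq and build mm10. Other versions, the annotation and the strand setting: not given in the sources used here. No label names the unit, and the deposited values were taken to be FPKM computed by the authors. Fragment numbers were recovered from the steps between low values, assuming a single length for a gene and a single total for a library. The 142235 nonzero values were all whole to within 0.001. Each length was the smallest that made the nonzero values of its gene whole. For genes with few nonzero libraries this is therefore no check on the fragment numbers. Recovery and fit were tested on simulated data.

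FPKM were divided by TMM factors (0.3 of M-values and 0.05 of A-values trimmed, no weights) and tested as log2(FPKM + 0.1) with limma 3.58.1 in R 4.3.3, with an intensity trend and no covariates, two-sided, at a threshold of 0.05. The deposited values are FPKM, and no count test was run. The recovered fragment numbers served for the filter, the TMM factors and the folds of summed fragments. Tested genes had at least 0.246 CPM (10 fragments in a library of median size) in at least 4 libraries and at least 15 in all. Libraries of the same number come from the same animal, and their deviations from the group means correlated at 0.22 to 0.40, against -0.27 to 0.11 for other pairs. Each animal gave 1 library per group, so the spread is that between animals.

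The 8 genes and the lists were chosen with earlier results of these data known. Named genes were the 8, the listed ligands and receptors (some are not reported here), up to 2 largest rises and 2 largest falls in each other pathway list, and the 2 nearest profiles for each of the 8. The first 2 genes of each marker list were to be named too, of which only Aldh1l1, Gfap, Snap25 and Syt1 are given. The lists of reactive and activity genes were added after values were seen. Alternatives changed the scaling, pseudocount, filter, variance trend and pairing, and left out each library and animal. Intervals cover counting error only. Sequences and coordinates are from RefSeq on GRCm38.p6. Of the 8 genes, 5 had a promoter window in that table.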

Additional observations from a re-analysis of the deposited data

Results flagged for a closer look

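In 5 of the 16 sets of 4 libraries checked (8 genes in 2 groups), 1 library lay far from the others relative to the range of the set. All 5 were libraries of animal 581. For a single set this is reached by chance in about 1 in 20. The 16 sets come from the same 4 animals and are not independent, so the 2 numbers make no test. Bdnf was high in its HA IP library, at 0.366 FPKM, and in its input library, at 2.35 FPKM. Ngfr was high in its HA IP library, at 2.08 FPKM, and Gfra2 in its input library, at 46.6 FPKM, both only just far enough to be listed, with gaps of 0.831 and 0.83 of the range. Ntf3 was low in its input library, at 0.166 FPKM. The log2 ratio of Ntf3 in animal 581, on the deposited scale, was also far from the others, at -1.19 against -2.43 to -2.24. With TMM scaling no ratio of the 8 genes within an animal was. Over all 15605 tested genes, the share for which a library stood apart was 2.27% for HA IP and 3.67% for input of animal 581, 2.47% and 1.26% for animal 595, and 0.679% to 0.923% for the libraries of the other 2 animals.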

How the results depend on the processing

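The directions and calls of Bdnf, Ntf3, Ntrk2, Ntrk3, Sort1, Gfra1 and Gfra2 held under each alternative that tested them, 20 for each gene and 19 for Ntf3, which a filter of 1 CPM removed. Ngfr, at 1.28 without a call, passed with that filter (1.28, adjusted p = 0.0477) and with the replicate block (1.28, adjusted p = 0.00596). It ranged from 0.72 to 1.77 when a library or an animal was left out, passing without HA IP of animal 595 (1.77, adjusted p = 0.00557) and without animal 595 (1.57, adjusted p = 0.0190). Over all its alternatives its adjusted p ran from 0.00557 to 0.303. On the deposited scale 3643 of all genes were called higher in place of 6565, and 19 pathway genes in place of 34. There 9613 were called lower in place of 6428, and 61 pathway genes in place of 45. The block changed no other call of the 8 genes. With a pseudocount of 1 FPKM, Bdnf and Ntf3 changed by -0.77 and -0.35. Depth limits Ntf3, at 2 to 4 fragments per HA IP library. The folds of summed fragments without animal 581 (Ntf3, Ret and Ntf5) were added after the data were seen.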
